A study of Homo sapiens with 3 samples.

Results

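Clustered histone genes were followed in the human line MDA-MB-231, which derives from a breast cancer, has a basal and mesenchymal phenotype and is usually described as lacking estrogen receptor alpha. The genes are those of the 5 histone types H1, H2A, H2B, H3 and H4 whose systematic names place them in the histone gene family (H1-1 to H1-6, and every symbol that opens with H2AC, H2BC, H3C or H4C and a number), read from probe sets that the platform annotation assigns to exactly 1 gene. They came to 45 genes on 51 probe sets, of 19775 named genes on 41097 such probe sets and 54675 probe sets in all. Of the 45, 6 were H1 genes, 9 H2A, 14 H2B, 7 H3 and 9 H4. Cultures were treated for 3 h with tamoxifen at 1 µM, with estradiol at 1 µM or with vehicle (0.1% ethanol), each following a 4 h preincubation in which the serum (10%) had been stripped with charcoal to deplete steroids. Tamoxifen blocks the estrogen receptor in breast tissue, and estradiol is the main natural estrogen. There was 1 array per treatment and no replicate, so no value below has an error estimate and no test was run.

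Histones package DNA. H2A, H2B, H3 and H4 form the core around which DNA winds, and H1 binds the linker between cores. Most of their genes lie in clusters and are expressed mainly while DNA is copied, and their main messages end in a stem-loop in place of a poly(A) tail. The labels name the manufacturer's labelling protocol with no detail. The usual form of that protocol primes from poly(A) tails, and several of these genes also make polyadenylated transcripts, so the values need not measure the whole pool of histone messages.

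The deposited numbers are log2 values from which an unstated baseline had been taken for each probe set, so they cannot be compared between genes. The scale, base 2, and the direction, higher meaning more RNA, are assumed from robust multi-array averaging (RMA), which the submitters' processing notes name. Differences between 2 arrays of 1 gene are used below. A gene is called higher or lower where its difference passes 1.5-fold (0.58 on the log2 scale), a rule of size and not a test. The vehicle column was narrower than the others (SD over probe sets of 0.46 for tamoxifen, 0.47 for estradiol and 0.20 for vehicle), and differences from vehicle are therefore also given with the vehicle value doubled, in which case the unstated baseline need not cancel. Of the 45 genes, 20 (21 probe sets) lay above a brightness floor at a log2 level of about 4, read from the binary steps of the numbers, and 25 lay below it. The band is inferred, and a dim probe set can be placed above the floor. Markers of the line were read on the same basis. VIM, CD44, CAV1, LAMB3, MSN and AXL, mesenchymal and basal markers, were 6 of 7 in the brightest band. Of 7 luminal markers GATA3, KRT19 and EPCAM were also in that band and ESR1, the estrogen receptor alpha gene, was in the 4 to 8 band. PTPRC, in the 4 to 8 band, was the only 1 of 4 leukocyte markers above the floor.

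The promoters of 5 genes are shown first because these genes carry the main contrasts: H2AC6 and H2BC4 share 1 promoter region and were both low with tamoxifen, H1-2 and H1-4 are linker histone genes that differed from each other, and H2BC21 lies in another cluster. Each line gives the 160 bases before the RefSeq start of the gene on its own strand (GRCh38.p14). Capitals mark the letters of 4 motifs on either strand: the octamer ATTTGCAT, bound by POU2F1 and known from H2B promoters, CCAAT, the TATA box TATAAA, and AAACACA, a box known from H1 promoters. None of the 4 motifs overlapped another in these windows.
H2AC6: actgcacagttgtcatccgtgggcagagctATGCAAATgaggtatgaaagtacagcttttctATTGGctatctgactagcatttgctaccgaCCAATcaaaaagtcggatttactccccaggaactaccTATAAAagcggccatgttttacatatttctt
H2BC4: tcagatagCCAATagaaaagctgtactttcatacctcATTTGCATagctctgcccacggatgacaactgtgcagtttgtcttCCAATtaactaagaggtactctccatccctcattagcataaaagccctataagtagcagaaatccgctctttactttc
H1-2: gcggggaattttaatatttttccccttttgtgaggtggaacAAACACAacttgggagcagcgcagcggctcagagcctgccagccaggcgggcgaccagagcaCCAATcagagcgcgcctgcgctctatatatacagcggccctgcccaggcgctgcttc
H1-4: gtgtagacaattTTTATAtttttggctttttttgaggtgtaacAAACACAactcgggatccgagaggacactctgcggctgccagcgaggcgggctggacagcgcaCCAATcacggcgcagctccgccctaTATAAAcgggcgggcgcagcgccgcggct
H2BC21: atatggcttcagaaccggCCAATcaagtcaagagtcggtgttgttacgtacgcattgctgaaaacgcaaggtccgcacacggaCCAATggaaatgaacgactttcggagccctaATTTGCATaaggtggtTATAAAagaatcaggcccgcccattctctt

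These windows are, in the same order, chr6:26124012-26124171 (plus strand), chr6:26123927-26124086 (minus strand), chr6:26056471-26056630 (minus strand), chr6:26156169-26156328 (plus strand) and chr1:149886683-149886842 (minus strand). The H2AC6 and H2BC4 genes point away from each other with 246 bases between their start sites, and the octamer of both windows is the same stretch of chromosome 6, 26124042 to 26124049, read on opposite strands. H1-2 and H1-4 each held AAACACA, 119 and 117 bases before the start, and a CCAAT 57 and 54 bases before it, while TATAAA was found in H1-4 alone of these 2, at 29 bases and, on the other strand, at 148 bases before the start. In the 250 bases before the start, the octamer was present in 6 of 8 promoters of the H2A genes, in 11 of 15 of the H2B genes (73.3%) and in 573 of all 35116 promoters of the RefSeq table (1.6%). AAACACA was present in 6 of 6 H1 promoters and in 4.8% of all promoters. CCAAT was present in 38 of 43 promoters of these histone genes and in 11240 of all, and TATAAA in 29 of 43 and in 10.7% of all. Of the 45 genes, 40 had a promoter in the table.

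**Figure D1:**
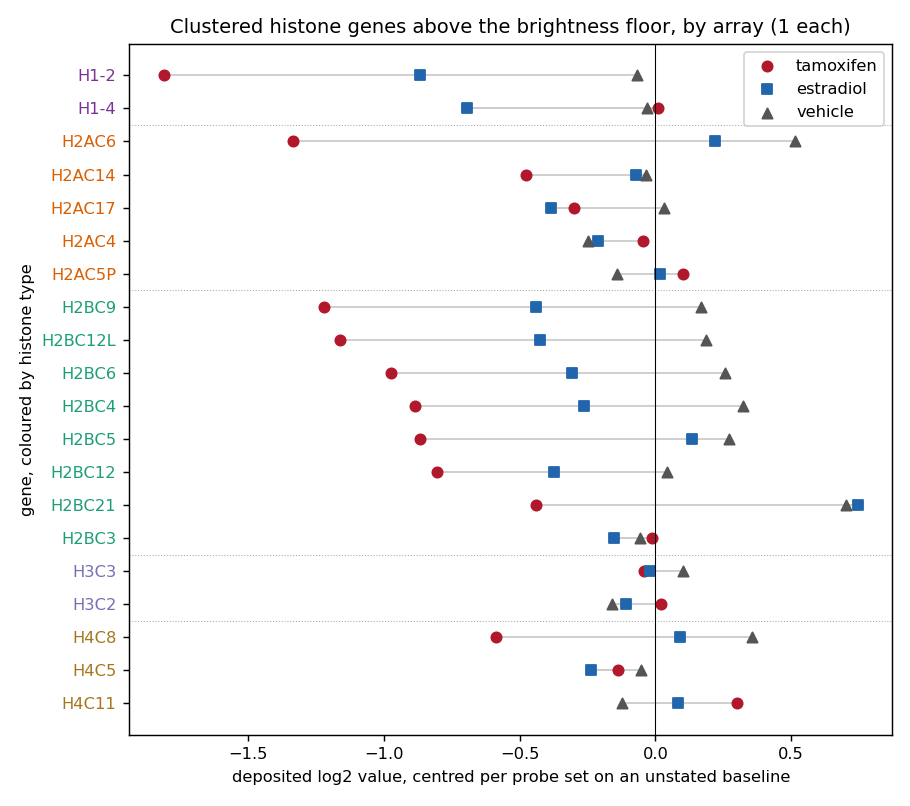
Deposited log2 values (horizontal axis, relative to an unstated baseline) of the 20 clustered histone genes above the brightness floor on the tamoxifen (circle), estradiol (square) and vehicle (triangle) arrays, 1 array each, with gene names coloured by histone type. The tamoxifen array is leftmost for 12 of the 20 genes, among them 7 of the 8 H2B genes.

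With tamoxifen, 6 H2B genes, H2AC6, H1-2 and H4C8 were lower than with estradiol, and H1-4 was higher. H2AC6, which encodes a core histone of the H2A type, was 2.94-fold lower on the tamoxifen array, H2BC21 was 2.27-fold lower and H1-2, a linker histone gene, was 1.92-fold lower. The vehicle array plays no part here. Of the 45 genes, 10 were at least 1.5-fold lower and 2 higher. Among the 20 above the floor, 9 were lower and 1 higher, where 2.20% of all 12078 named genes above the floor were lower and 1.56% higher. Most of the 9 were read by probe sets that can bind RNA of several histone genes. At 2-fold, 3 of the 20 were lower (0.240% of all named genes) and 0 higher (0.0828%). The median difference was -0.42 over the 20 genes, -0.13 over all 45 and -0.02 over all named genes above the floor.

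Against vehicle, 10 of the 45 genes were at least 1.5-fold lower with tamoxifen and 0 higher. All 10 lay above the floor, and 8 of them passed 2-fold. The background over the 12078 named genes was 4.33% lower and 6.97% higher at 1.5-fold, and 0.472% lower at 2-fold. The median was -0.64 over the 20 genes, -0.10 over all 45 and 0.02 over all named genes. With the vehicle doubled 10 of the 20 were again lower and 0 higher, against 3.64% and 7.15% of all named genes, and their median was -0.65. With estradiol, 4 of the 20 were lower than with vehicle and 0 higher, against 2.65% and 5.84% of all named genes, with a median of -0.23. At 2-fold 0 of the 20 were lower, against 0.232% of all. Doubling the vehicle raised the estradiol count to 9 lower and 0 higher, against 1.92% and 4.40% of all named genes, and moved the median to -0.45. The comparisons with vehicle share the vehicle array, and those with tamoxifen share the tamoxifen array. In a whole culture, fewer cells in S phase and less histone RNA per cell cannot be told apart.

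The arrays differed in 1 sign of RNA quality that moves with the tamoxifen results. On the control probe sets of the reference gene ACTB, tamoxifen minus estradiol was -0.996 at the 5′ end of the message, -0.42 in its middle and -0.05 at its 3′ end. Against vehicle the same 3 tamoxifen differences were -1.08, -0.36 and -0.18, and those of estradiol were -0.08, 0.05 and -0.13. The GAPDH control sets differed between tamoxifen and estradiol by -0.04 at the 5′ end, -0.12 in the middle and 0.07 at the 3′ end. Between tamoxifen and vehicle they differed by -0.26, -0.21 and -0.10 in the same order. The bacterial poly-A spike-in transcripts had a median of -0.16 over 27 probe sets for tamoxifen minus estradiol. Their median was 0.84 for tamoxifen minus vehicle and 0.99 for estradiol minus vehicle. With the vehicle doubled these medians from vehicle were 0.36 for tamoxifen and 0.44 for estradiol. The part of these differences in the histone results was not tested.

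**Figure D2:**
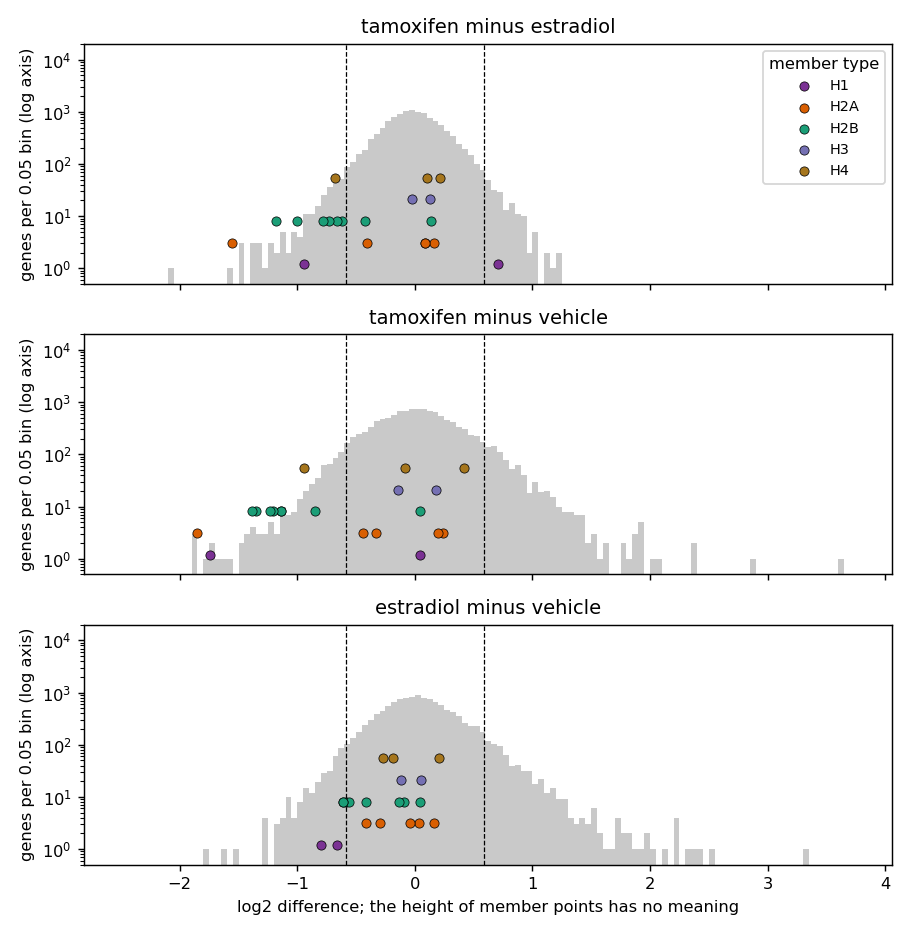
Log2 differences (horizontal axis) of all 12078 named genes above the brightness floor, as grey counts per bin on a log axis, with the 20 clustered histone genes as points coloured by type, for tamoxifen minus estradiol, tamoxifen minus vehicle and estradiol minus vehicle. Dashed lines mark 1.5-fold. In the tamoxifen minus vehicle panel 10 of the points lie left of the lower line and 0 right of the upper one.

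Linker histones were not alike. H1-2 had values of -1.81 with tamoxifen, -0.87 with estradiol and -0.07 with vehicle. It was lowest with tamoxifen and highest with vehicle, with differences of -0.94 (tamoxifen minus estradiol), -1.74 (tamoxifen minus vehicle, 3.35-fold lower) and -0.80 (estradiol minus vehicle). H1-4, which encodes another somatic linker histone, had 0.01 with tamoxifen, -0.69 with estradiol and -0.03 with vehicle. It was low on the estradiol array alone, with differences of 0.70, 0.04 and -0.66 in the same order. Both genes were read by probe sets whose names carry no mark of cross-hybridisation, and both lay in the brightest band. H1-5, below the floor, had the same shape as H1-4 with 0.19, -0.48 and 0.08 on the tamoxifen, estradiol and vehicle arrays. H1-1, H1-3 and H1-6 (a testis form), also below the floor, differed by -0.36 to 0.11 between tamoxifen and vehicle. Doubling the vehicle left H1-2 at -1.68 with tamoxifen and -0.74 with estradiol, and H1-4 at 0.07 and -0.63.

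Among the H2A genes the low value belonged to H2AC6. Its values were -1.34 with tamoxifen, 0.22 with estradiol and 0.51 with vehicle. Only the tamoxifen array was far from the others, and the differences were -1.56 (tamoxifen minus estradiol), -1.85 (tamoxifen minus vehicle) and -0.29 (estradiol minus vehicle). In rank, H2AC6 had the 2nd lowest tamoxifen minus estradiol difference of the 12078 named genes and the 3rd lowest tamoxifen minus vehicle difference. H2AC6 was read only by an _s_at set, which can bind RNA of several histone genes. The other 4 H2A genes above the floor stayed within 1.5-fold in all 3 comparisons. H2AC14 had -0.48 with tamoxifen, -0.07 with estradiol and -0.03 with vehicle. H2AC17 had -0.30, -0.38 and 0.03 on the same arrays, so that both ligands lay below vehicle. H2AC4 (-0.05, -0.21 and -0.25) and the pseudogene H2AC5P (0.10, 0.02 and -0.14) were highest with tamoxifen. The 4 H2A genes below the floor, H2AC8, H2AC15, H2AC16 and H2AC25, differed by -0.13 to 0.13 between tamoxifen and vehicle and by 0.15 to 0.27 between estradiol and vehicle.

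H2B was the type with the most low values: 6 of its 8 genes above the floor were lower with tamoxifen than with estradiol, and 7 of the 8 were lower than with vehicle. Its median over the 8 genes was -0.70 for tamoxifen minus estradiol, -1.17 for tamoxifen minus vehicle and -0.49 for estradiol minus vehicle. Over all named genes above the floor 2.20% were lower than with estradiol and 4.33% lower than with vehicle. Of the 6 genes only H2BC4 was read by a set without an _s_at or _x_at ending, so they need not be separate observations. The H2B sets without these endings gave -0.62 (H2BC4), -0.43 (H2BC12) and 0.14 (H2BC3) for tamoxifen minus estradiol. H2BC21 had -0.44 with tamoxifen, 0.75 with estradiol and 0.70 with vehicle. Estradiol and vehicle lay together and tamoxifen apart, at -1.18 from estradiol and -1.14 from vehicle. H2BC5 had -0.87 with tamoxifen, 0.13 with estradiol and 0.27 with vehicle. Its 2 probe sets, both with the _x_at ending, gave tamoxifen minus estradiol differences of -0.93 and -1.08. For estradiol minus vehicle the same sets gave -0.31 and 0.03.

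In the other low H2B genes the estradiol array lay between tamoxifen and vehicle. H2BC4, the divergent neighbour of H2AC6, had -0.88 with tamoxifen, -0.26 with estradiol and 0.32 with vehicle. Its differences were -0.62 (tamoxifen minus estradiol), -1.21 (tamoxifen minus vehicle) and -0.58 (estradiol minus vehicle), where H2AC6 had -1.56, -1.85 and -0.29. Other divergent neighbours, each with at least 1 gene below the floor, were not alike for tamoxifen minus estradiol. H2AC14 and H2BC14 had -0.40 and 0.14, H2AC17 and H2BC17 0.08 and -0.15, and H2AC15 and H2BC15 -0.28 and -0.01. From vehicle these pairs had -0.44 and -0.22, -0.33 and -0.23, and -0.13 and -0.10 with tamoxifen. Any part of the shared promoter was not tested. H2BC12 had -0.80 with tamoxifen, -0.37 with estradiol and 0.04 with vehicle. It was 1.80-fold lower with tamoxifen than with vehicle, and its difference of -0.43 from estradiol did not pass the rule.

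H2BC6, H2BC9 and H2BC12L were, like H2BC5, read by probe sets with the _x_at ending, and H2BC21 was read by an _s_at set. H2BC6 had -0.98 with tamoxifen, -0.31 with estradiol and 0.25 with vehicle. H2BC9 had -1.22, -0.44 and 0.17 on the same arrays, and H2BC12L, a copy outside the main clusters, had -1.16, -0.43 and 0.19. All 3 were ordered tamoxifen, estradiol, vehicle from low to high, with tamoxifen minus vehicle differences of -1.23, -1.39 and -1.35. H2BC3 did not share the pattern, with -0.01 with tamoxifen, -0.15 with estradiol and -0.06 with vehicle. The 6 H2B genes below the floor (H2BC1, H2BC11, H2BC13, H2BC14, H2BC15 and H2BC17) were all nearer to vehicle, with tamoxifen minus vehicle differences of -0.48 to -0.10. In the 250 bases before the start the octamer was present for H2BC3, H2BC4, H2BC6, H2BC9, H2BC12 and H2BC21 and absent for H2BC5. Any part of the octamer in these values was not tested.

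Few H3 and H4 genes could be read. H3C2 had 0.02 with tamoxifen, -0.11 with estradiol and -0.16 with vehicle, and H3C3 had -0.04, -0.02 and 0.10. Neither passed 1.5-fold in a comparison. The 5 H3 genes below the floor, H3C1, H3C6, H3C7, H3C8 and H3C11, differed by -0.24 to 0.11 between tamoxifen and vehicle. H4C8 had -0.59 with tamoxifen, 0.09 with estradiol and 0.36 with vehicle. It differed by -0.68 between tamoxifen and estradiol and by -0.94 between tamoxifen and vehicle, and its probe set below the floor gave -0.66 and -0.57 for the same differences. H4C5 (-0.14, -0.24 and -0.05 on the tamoxifen, estradiol and vehicle arrays) and H4C11 (0.30, 0.08 and -0.12) stayed within the rule, and H4C11 was highest with tamoxifen. The 6 H4 genes below the floor, H4C1, H4C4, H4C7, H4C9, H4C13 and the pseudogene H4C10P, differed by -0.08 to 0.27 between tamoxifen and vehicle. Of these H4C7 stood out on the estradiol array, with -0.10 with tamoxifen, 0.66 with estradiol and -0.14 with vehicle, in the dimmest band.

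Histone genes are near copies of each other, and probe sets ending in _s_at or _x_at can bind RNA of several of them. Such sets were 10 of the 21 above the floor, and 7 of these 10 were at least 1.5-fold lower with tamoxifen than with estradiol, with a median of -0.76. Of the other 11, 3 were lower (H1-2, H2BC4 and H4C8) and H1-4 was higher, with a median of 0.08. Against vehicle the counts lower with tamoxifen were 7 of 10 and 4 of 11, the last adding H2BC12. At 2-fold, 3 of the 10 sets and 0 of the 11 were lower with tamoxifen than with estradiol. The low H2B genes read by _x_at sets may therefore share RNA and do not count as separate observations. H2AC6 and H2BC21, read by _s_at sets, may likewise include RNA of other histone genes. A further 20 probe sets are annotated to several clustered histone genes at once and belong to no gene here. Of the 8 above the floor, 2 were lower with tamoxifen than with estradiol and 5 were lower than with vehicle, with medians of -0.42 and -1.03. These 5 comprised 3 sets for H2A genes, at -1.71, -1.10 and -1.05 from vehicle, and 2 for H2B genes, at -1.20 and -1.02. The 2 sets above the floor for H4 genes differed by -0.15 and 0.21. Of the 12 below the floor, 2 were lower with tamoxifen than with estradiol and 1 was higher. The low sets were 1 for H2B genes (-1.49) and 1 for H3 genes (-1.16), and the high set was for H2B genes (1.31).

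Across the 20 genes above the floor the tamoxifen value was the lowest of the 3 in 12 (60.0%), against 34.6% of all named genes. The order tamoxifen, estradiol, vehicle from low to high was seen in 11 of the 20 and in 21.5% of all named genes. Of the 30 named genes with the lowest tamoxifen minus vehicle difference, 6 were clustered histone genes (H2AC6, H1-2, H2BC9, H2BC12L, H2BC6 and H2BC4). For tamoxifen minus estradiol 3 of 30 were (H2AC6, H2BC21 and H2BC5), and for estradiol minus vehicle 0 of 30. Of the genes named in these lists, only H1-2 and H2BC4 were read by sets without an _s_at or _x_at ending. The others may share RNA and need not be separate observations.

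**Figure D3:**
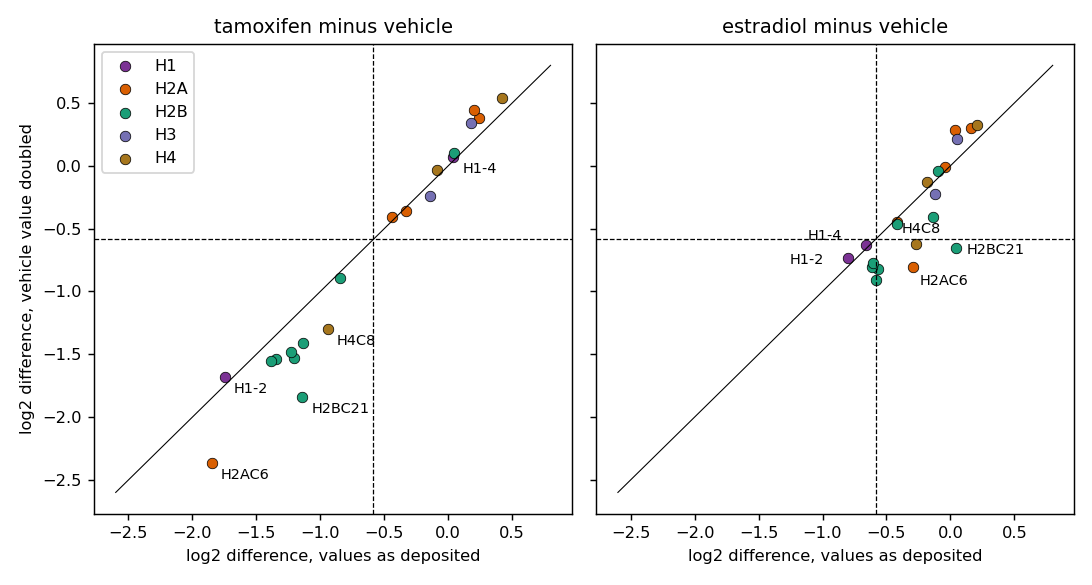
Log2 differences of the 20 clustered histone genes from vehicle, as deposited (horizontal axis) and with the vehicle value doubled (vertical axis), for tamoxifen and for estradiol. Points are coloured by histone type, the solid line marks equal values and dashed lines mark 1.5-fold lower. With tamoxifen 10 genes lie beyond the rule on both axes, and with estradiol 4 do on the horizontal axis and 9 on the vertical one.

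H2BC21 and H2AC6 had the highest vehicle values of the 20 (0.70 and 0.51) and so moved most when the vehicle was doubled. H2BC21 minus vehicle became -1.84 with tamoxifen and -0.66 with estradiol, and that estradiol difference was 0.04 as deposited. H2AC6 became -2.36 with tamoxifen and -0.81 with estradiol. For the H2B genes the median became -1.51 with tamoxifen and -0.72 with estradiol.

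Genes outside the clusters were set beside these. Most replacement histones are made throughout the cell cycle from polyadenylated messages, while H2AX, listed with them, also makes a stem-loop message in S phase. Of 14 listed genes, 8 lay above the floor. Of the 8, 1 was lower with tamoxifen than with estradiol and 2 were lower than with vehicle, with medians of -0.09 and -0.13. H1-10, a linker histone gene outside the clusters, had -1.91 with tamoxifen, -1.15 with estradiol and -0.35 with vehicle, a pattern close in order to that of H1-2. H2AX, whose product marks DNA breaks once phosphorylated, had -0.34, -0.09 and 0.53, so that both ligands lay below vehicle. H2AJ and H1-7 differed by -0.29 and 0.30 between tamoxifen and estradiol, and CENPA, the centromeric H3, by -0.23 between tamoxifen and vehicle. H2AZ1, the gene of a variant found at promoters, had 0.06, -0.06 and -0.06. H3-3A, below the floor, had -0.10, -0.57 and 0.20, and H3-3B was not analysed here.

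Among genes that make and process histone messages none was lower with tamoxifen by the rule. Over all named genes above the floor, 2.20% were lower than with estradiol and 4.33% lower than with vehicle. In so short a list 0 is near those shares. Of 19 genes above the floor in the list of histone transcription and 3′ processing, 0 passed 1.5-fold between tamoxifen and estradiol (median 0.13), and 1 was higher with tamoxifen than with vehicle (median 0.05). That gene was TUT4, a terminal uridylyltransferase, with 1.13 with tamoxifen, 0.73 with estradiol and 0.28 with vehicle. With the vehicle doubled its difference was 0.57, and 0 of the 19 were higher (median 0.19). Its relative TUT7 had -0.10, -0.56 and -0.32. GON4L and LSM10 were 0.32 and 0.26 above estradiol, and CASP8AP2 and CSTF2 were 0.44 and 0.38 above vehicle. SLBP, which binds the stem-loop of histone messages, had 0.27, 0.32 and -0.03, and NPAT, the coactivator of histone transcription in S phase, had 0.01, -0.14 and 0.03. SYMPK, a scaffold of the cleavage complex, had -1.05, -1.11 and -0.62.

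None of 19 chaperone genes passed the rule between tamoxifen and estradiol (median 0.02), nor did any of 28 genes of DNA replication and S phase (median 0.03). Over all named genes above the floor 2.20% were lower and 1.56% higher, so 0 in lists this short is near the background share. From vehicle with tamoxifen the shares were 4.33% and 6.97%. Against vehicle, tamoxifen had 1 chaperone gene lower, MCM2 at -0.63, and 0 higher, with a median of -0.10. With the vehicle doubled 0 were lower and 1 was higher (HAT1, 0.67), and the median was 0.10. As deposited, DAXX (-0.55), SSRP1 (-0.52) and HAT1 (0.47) came next, and against estradiol NAP1L1 (0.37), ATRX (0.23) and HIRA (0.23) were furthest. In the replication list MCM2 and MCM5 (-0.67), subunits of the replicative helicase, were lower and POLA1, a DNA polymerase subunit, was higher (0.91), with TK1 at -0.57. Against estradiol, CCNE2 (0.49), MCM6 (0.39), POLA1 (0.37) and UHRF1 (0.36) were furthest. With estradiol MCM5 was at -0.59 and MCM2 at -0.51 from vehicle. The replication list had medians of -0.14 with tamoxifen and -0.21 with estradiol, and of 0.15 and 0.10 with the vehicle doubled, where the sign turned and MCM2 (-0.07) and MCM5 (0.03) no longer passed with tamoxifen. For 13 genes of G2 and mitosis, 0 passed the rule between tamoxifen and estradiol, again near the background share, and TOP2A was the furthest at 0.57. Of these 13, AURKB alone was lower with tamoxifen than with vehicle (-0.90), and MKI67 (-0.53), CDK1 (0.52) and BIRC5 (-0.51) stayed within the rule. With estradiol AURKB (-0.77) and MKI67 (-0.70) were lower than with vehicle. The 9 common reference genes had medians of -0.04 for tamoxifen minus estradiol and 0.11 for tamoxifen minus vehicle, with PGK1 (0.95), HPRT1 (0.78) and B2M (0.71) higher than with vehicle. With estradiol PGK1 (0.83), HPRT1 (0.71) and B2M (0.60) were also higher than with vehicle. After the vehicle was doubled HPRT1 (0.62) alone of these passed the rule with tamoxifen, where PGK1 was at 0.25 and B2M at 0.44.

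**Figure D4:**
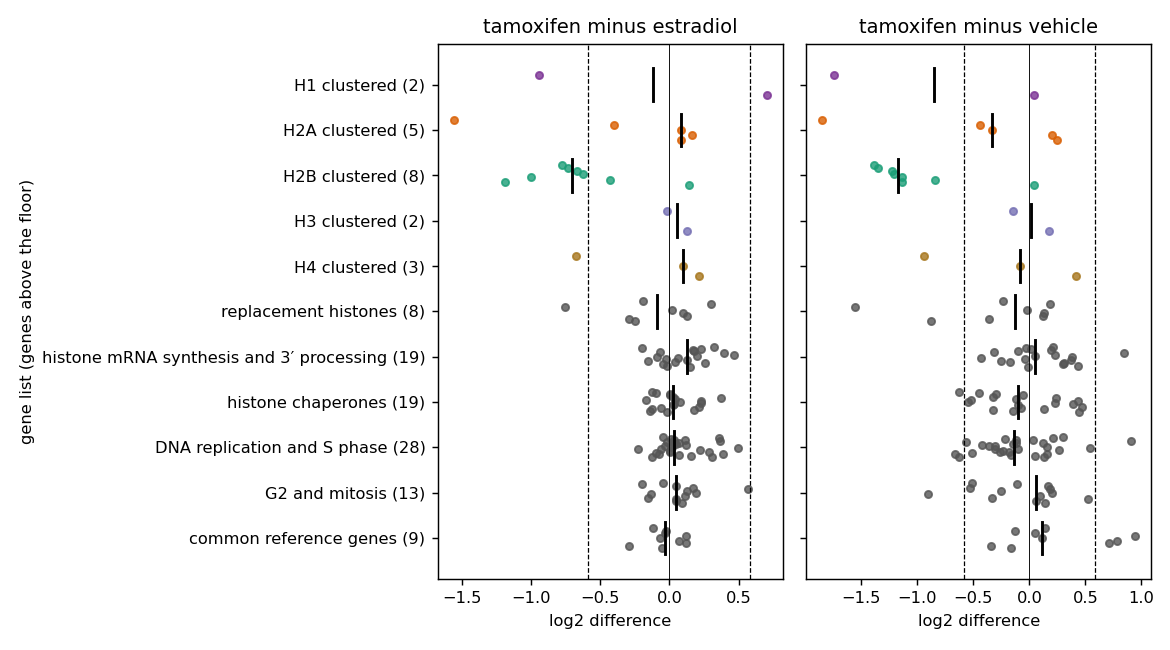
Log2 differences (horizontal axis) of each gene above the brightness floor in the 5 clustered histone types and in 6 related lists, for tamoxifen minus estradiol and tamoxifen minus vehicle. Points are genes, black bars are list medians and dashed lines mark 1.5-fold. The H2B row lies left of 0 apart from 1 gene in each panel. All 28 replication genes lie within the lines in the tamoxifen minus estradiol panel. Over all named genes above the floor, 2.20% were lower and 1.56% higher by the rule in that comparison.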

How the data were processed

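Gene expression was measured on Affymetrix arrays with 54675 probe sets in 3 cultures of MDA-MB-231 cells, grouped by the labelled treatment. The authors deposited log2 values, and RMA (version not stated) is named per the submitters' processing notes. Their centring is not stated in the labels or the file. The brightness band of a probe set was read from the finest binary step of its 3 values, since single-precision levels of 8 to 16, 4 to 8 and 2 to 4 are stored in different steps. For the vehicle column the step was read as if each value were a mean of 2 arrays, which the labels do not state. The method was tested on simulated data built with the same assumption, so that assumption was not tested. There 13.5% of levels in the 2 to 4 band and 1.5% of those under 2 were placed above the floor. In the deposited data 14 of 107 probe sets of olfactory receptor genes (13.1%) lay above the floor. Of 121 probe sets of ribosomal protein genes 107 did (88.4%). The value of a gene was averaged over those of its probe sets that shared the brightest band it reached, and 5001 of the 12078 genes above the floor lay in the 8 to 16 band. The annotation gave several symbols for 1801 probe sets and listed no entry for 11777, which were left out. All 45 symbols were found in the RefSeq gene table (GRCh38.p14). The 3 differences between arrays were described with no test, and the number of arrays limits the precision. Named are all members, and of each other list up to 4 genes with the largest tamoxifen differences, plus SLBP, NPAT, H2AX, H1-10, H2AZ1, H3-3A and H3-3B. H1-5, H4C7 and the AAACACA motif were chosen after values were seen. Members and lists were chosen with earlier results of these data known. Alternatives were no floor, the brightest band only, a doubled vehicle, the mean of all probe sets, no _s_at or _x_at sets, centring within bands and a 2-fold rule. Python 3.11.15, numpy 2.4.6, pandas 2.3.3 and matplotlib 3.10.9 were used.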

Additional observations from a re-analysis of the deposited data

How the results depend on the processing

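Centring within brightness bands and averaging all probe sets of a gene left every count within 1.5 times and every median within 0.1 of the values above. Of 271 values of single genes under the alternatives, 243 moved by at most 0.1 and 28 moved further, and 0 of those that had passed the rule changed sign. Many of the 271 could not move. With no floor, the brightest band only or no _s_at or _x_at sets, each remaining gene kept the same probe sets. Averaging all probe sets could change H4C8 alone, since every other gene above the floor already used all of its sets. Centring took the same small amount from every gene of a band. Little change under these settings was therefore set in advance. The doubled vehicle moved 26 values by more than 0.1 and left 14 within it. With no floor the medians for tamoxifen minus estradiol were -0.13 over the members, 0.13 for H1, -0.13 for H2A and -0.35 for H2B, with 2 genes higher. For tamoxifen minus vehicle they were -0.10, 0.028 for H1 (against -0.85 over 2 genes above the floor), -0.036 for H2A, -0.66 for H2B and 0.040 for H4. For estradiol minus vehicle they were -0.10, -0.39 for H1, 0.15 for H2A, -0.21 for H2B and 0.11 for H4, with 1 gene higher. The cause was not tested. In the brightest band, which held 6 of the genes, 4 were lower for tamoxifen minus estradiol and 5 for tamoxifen minus vehicle, with medians of -0.68 and -1.28, and -0.60 for estradiol minus vehicle. H2A was then H2AC6 alone (-1.56, -1.85 and -0.29). Doubling the vehicle gave 9 genes lower with estradiol (median -0.45), H2B at -0.72 with estradiol and H2B at -1.51 with tamoxifen. Without _s_at and _x_at sets, which left 11 genes, 3 were lower for tamoxifen minus estradiol (median 0.084), 4 for tamoxifen minus vehicle (median -0.14) and 2 for estradiol minus vehicle. The type medians were then -0.43 for H2B and -0.29 for H4 against estradiol, and -0.85 for H2B, 0.20 for H2A, -0.14 for H3 and -0.51 for H4 against vehicle, all with tamoxifen. At 2-fold 3 genes were lower and 0 higher for tamoxifen minus estradiol, and 0 were lower for estradiol minus vehicle. No paired analysis was possible because each treatment had 1 array. With 1 array per treatment no difference could be set against a spread between replicates, and probe sets below the floor have little signal over background.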
